A study of Mus musculus with 4 samples.

Results

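The m6A peaks in coding sequence are the stretches of protein-coding messenger RNA that an antibody against N6-methyladenosine pulled down above input. They were taken as every peak that the authors annotated exactly as coding sequence in either of their 2 lists of peaks over input. They numbered 18130 of 30856 peaks, or 58.8%, and lay in 3636 of the 5475 genes that held any peak. The Mettl3-knockdown list held 9332 of them in 3174 genes and the control list 8798 in 3153 genes. No measured value entered this choice beyond the authors' own thresholds for listing a peak.

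The cells were mouse embryonic fibroblasts that express the viral oncogene E1A and the activated Ras protein HRasV12, 2 oncogenes that together transform primary rodent cells. The knockdown group carried shRNA against Mettl3 and the control group carried control shRNA, which its title names for luciferase. Both groups were treated with doxorubicin, a drug that breaks DNA, at 0.2 µg/ml for 6 h, so the lists compare cells with and without Mettl3 knockdown after DNA damage, and no undamaged cells were compared here. Each group had 1 m6A-eCLIP library, made from purified mRNA, and 1 input library, labelled as total RNA. The labels speak of shRNAs in the plural for each group, and whether cells with several shRNAs were pooled is not given in the sources used here. With 1 library per group, no difference given here could be set against replicates, and none was tested.

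N6-methyladenosine, written m6A, is the most common internal modification of mRNA and is placed by a nuclear complex whose catalytic subunit is Mettl3. It is written mostly at a short consensus whose core is GGAC, and is densest in long internal exons and around the stop codon. In coding sequence it is read by the same YTH proteins as elsewhere, and it is best known for shortening the life of transcripts of regulatory genes.

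Some peaks that lie whole inside the promoter windows of RefSeq genes on the opposite strand show what a coding-sequence peak contains; 5 are printed here. Of all coding-sequence peaks, 29 from 15 genes (20 in the knockdown list, 9 in the control list) fell whole inside one of 32851 windows of 300 bases, so they are no sample of the rest. Sequences are from RefSeq, build GRCm38.p6, written 5′ to 3′ on the strand of the peak's gene, with GGAC in capitals and searched on that strand alone. Irs4 and Irs2, adaptor proteins of the insulin receptor, are shown because Irs4 had a peak in the knockdown list alone while Irs2 had one in both. Slc7a4, a member of the cationic amino acid transporter family, and Arhgef40, a guanine nucleotide exchange factor, are shown as further genes with overlapping peaks in both. Klf7, a zinc finger transcription factor, is shown because its peak held the most GGAC of these sequences.
Irs4, knockdown list: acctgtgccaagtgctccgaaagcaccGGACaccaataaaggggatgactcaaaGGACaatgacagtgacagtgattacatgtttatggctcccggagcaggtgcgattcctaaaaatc
Irs2, knockdown list: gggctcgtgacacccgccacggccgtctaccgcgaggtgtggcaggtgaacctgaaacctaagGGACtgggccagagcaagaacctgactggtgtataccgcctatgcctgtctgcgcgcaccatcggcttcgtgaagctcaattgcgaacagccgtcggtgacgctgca
Slc7a4, knockdown list: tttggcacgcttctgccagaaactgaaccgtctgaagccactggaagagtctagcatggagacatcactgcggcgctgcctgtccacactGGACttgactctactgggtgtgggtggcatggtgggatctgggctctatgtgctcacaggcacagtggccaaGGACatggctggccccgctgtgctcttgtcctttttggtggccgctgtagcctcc
Arhgef40, knockdown list: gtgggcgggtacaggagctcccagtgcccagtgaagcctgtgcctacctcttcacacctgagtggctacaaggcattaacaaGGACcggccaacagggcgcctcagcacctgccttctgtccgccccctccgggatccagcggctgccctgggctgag
Klf7, control list: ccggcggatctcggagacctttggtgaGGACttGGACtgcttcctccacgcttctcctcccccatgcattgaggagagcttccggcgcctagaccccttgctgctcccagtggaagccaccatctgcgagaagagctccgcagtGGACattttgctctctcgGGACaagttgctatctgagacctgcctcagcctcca

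The Irs4 peak was at chrX:141722903-141723021 on the minus strand, had a log2 fold over input of 8.13 and held 2 GGAC, and the control list had no peak of any kind in Irs4. The Irs2 peak was at chr8:11007718-11007887 on the minus strand, had a log2 fold of 3.82 in the knockdown list and overlapped a control peak at 3.03, and held 1 GGAC. The Slc7a4 peak was at chr16:17575688-17575904 on the minus strand, at 4.32 in the knockdown list against 3.93 for its control counterpart, and held 2 GGAC. In Arhgef40 the peak at chr14:51988883-51989040 on the plus strand had 3.96 in the knockdown list against 3.36 for its control counterpart, and held 1 GGAC. The Klf7 control peak at chr1:64079099-64079296 on the minus strand had 3.02 and held 4 GGAC, and 2 knockdown peaks covered most of the same bases at 3.19 and 3.25. GGAC is common by itself: 34.6% of the RefSeq windows trimmed to the length of the Irs4 peak held it, as did 45.1% at the length of the Irs2 peak, 53.1% for Slc7a4, 42.6% for Arhgef40 and 50.0% for Klf7. Of the 29 peaks, which were 2 to 249 bases long, 19 held GGAC. The share of windows of the same length that held it averaged 29.9% over these peaks. Peaks of the 2 lists that overlap are counted separately here, so the same GGAC can count in both. The windows were chosen at promoters and not in coding sequence, so no enrichment can be read from these shares. These matches describe letters and do not mark a methylated base.

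Peaks covered nearly the same length of coding sequence in both lists. The knockdown peaks covered 1215612 bases and the control peaks 1215919 bases, although the knockdown list divided them into more peaks. The median peak was 123 bases long in the knockdown list and 131 bases in the control list, within ranges of 2 to 509 and 2 to 559 bases. Coding sequence took 60.5% of knockdown peaks (59.8 to 61.3, exact Clopper-Pearson 95% interval) and 57.0% of control peaks (56.2 to 57.8). The intervals hold for counting error alone, and count each peak as independent although many adjoin a neighbour. Read depth is not in the lists, so it is unknown how far depth set the number of peaks.

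Folds over input ran higher in the knockdown list. Every listed peak of both lists had a log2 fold above 3, the limit of the lists, so weaker sites are not seen. The median log2 fold of coding-sequence peaks was 3.81 in the knockdown (quartiles 3.39 and 4.39) and 3.66 in the control list (quartiles 3.31 and 4.11). A log2 fold of 4 or more was reached by 40.8% of coding-sequence peaks in the knockdown (3803) and 29.7% in the control list (2616). At a log2 fold of at least 6 there were 140 knockdown and 21 control peaks. In the 3′ UTR the medians were 3.86 and 3.76 in the knockdown and control lists, and the shares at 4 or above 42.7% and 37.3%. The authors' −log10 p was at its upper limit of 400 for 59.6% of knockdown and 58.7% of control coding-sequence peaks, so it does not rank the stronger peaks.

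Some folds take few values. In each list many peaks had a linear fold that was a whole multiple, within 0.0001, of a common step (0.986 in the knockdown and 1.17 in the control list), and these are called stepped folds here. They made up 8.05% of knockdown coding-sequence peaks (751) and 6.52% of control ones (574). Reads per peak are not in the lists, and what produces the steps was not tested. The Irs4 peak shown and the control counterpart of the Slc7a4 peak had stepped folds, and stepped folds are marked in the account of the highest folds, the largest differences and the genes with peaks in one list alone.

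Most coding-sequence peaks were found in both cell populations. Of the knockdown peaks, 7749, or 83.0% (82.3 to 83.8), overlapped a control coding-sequence peak by at least 1 base on the same strand. Of the control peaks, 7348, or 83.5% (82.7 to 84.3), overlapped a knockdown one. Counting counterparts in any region, the shares were 84.5% and 84.9% for knockdown and control coding-sequence peaks, beside 83.7% of knockdown and 81.1% of control peaks over all regions. With only log2 folds of 4 or more kept in both lists, 62.3% of 3803 knockdown and 76.6% of 2616 control coding-sequence peaks had a counterpart. This setting was added once the data had been seen, and the sets it compares differ in size. Among coding-sequence peaks at the −log10 p limit, 92.7% of knockdown and 91.6% of control peaks had a counterpart. In the 3′ UTR the share with a counterpart in the same region was 85.4% (84.3 to 86.5) of 4215 knockdown peaks and 76.4% (75.2 to 77.6) of 4764 control peaks. In the 5′ UTR it was 60.2% (55.0 to 65.2) of 369 knockdown and 74.6% (69.1 to 79.7) of 276 control peaks. The matched peaks numbered 3601 and 3642 in the 3′ UTR and 222 and 206 in the 5′ UTR, in the knockdown and control lists.

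**Figure D1:**
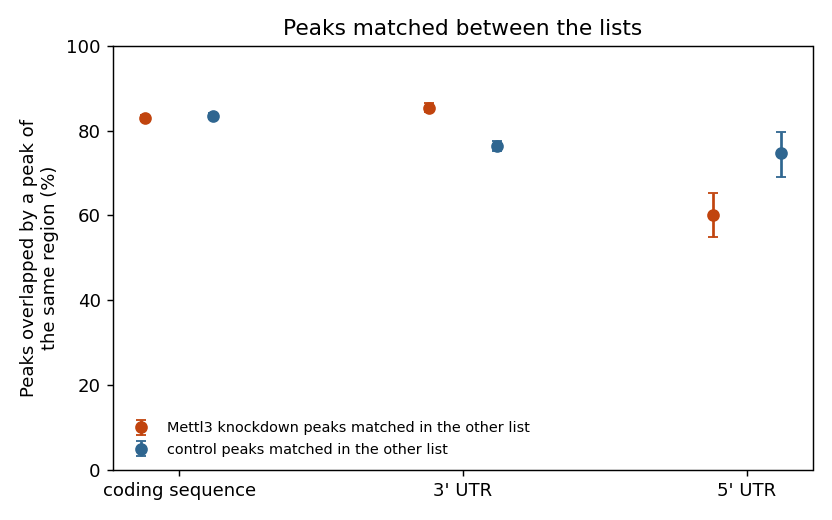
Share of peaks (%) that a peak of the same region in the other list overlapped, for knockdown peaks and control peaks in coding sequence, 3′ UTR and 5′ UTR; bars are exact 95% binomial intervals. In coding sequence the knockdown and control points lie together at 83.0% and 83.5%, and in both untranslated regions they part. The lists also differ in size there, with 4215 knockdown and 4764 control peaks in the 3′ UTR and 369 and 276 in the 5′ UTR.

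Peaks without a counterpart were weaker. Both lists end at a log2 fold of 3, so a peak near that limit can lose its counterpart through a small drop. How far this sets the relation between fold and counterpart was not tested. The 1583 knockdown coding-sequence peaks with none had a median log2 fold of 3.40, against 3.90 for those with one, and 25.7% against 66.5% stood at the −log10 p limit. The 1450 control peaks with none had a median of 3.26, against 3.74, and 29.9% against 64.4% stood at the limit. Stepped folds were more frequent among them, at 21.4% against 5.32% in the knockdown and 15.4% against 4.76% in the control list. A gene without a counterpart at one site often had one elsewhere: 931 of the 1583 knockdown peaks (58.8%) and 862 of the 1450 control peaks (59.4%) lay in a gene with a coding-sequence peak in the other list. For 133 knockdown and 119 control peaks a counterpart existed under another annotation, most often the 3′ UTR (47 and 42 peaks) or a distal intron (45 and 47 peaks).

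The share with a counterpart followed the fold. In the knockdown list 62.0% of coding-sequence peaks between 3 and 3.25 on the log2 scale had one, and 93.8% of those between 5 and 6. In the control list these shares were 62.3% and 97.8%. Above 6 they parted: 111 of 140 knockdown peaks (79.3%) and 21 of 21 control peaks had a counterpart. Of the 29 knockdown peaks above 6 without one, 25 had stepped folds.

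**Figure D2:**
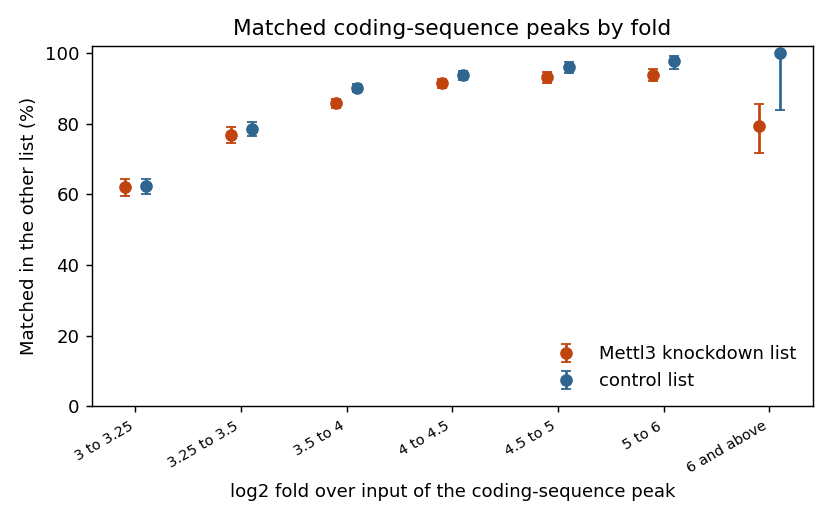
Share of coding-sequence peaks (%) overlapped by a coding-sequence peak of the other list, by the peak's own log2 fold over input, for the knockdown and the control list; bars are exact 95% binomial intervals. The share climbs with the fold in both lists to between 5 and 6, and in the knockdown list is 79.3% at 6 and above.

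Adjoining peaks were joined, since the lists cut one enriched stretch into pieces. Mdm2, the ubiquitin ligase that degrades p53, shows how far the cutting goes: its 31 knockdown and 16 control coding-sequence peaks covered 140 and 93 bases. Joining left 4998 knockdown and 4897 control stretches, with median lengths of 229 and 234 bases. Single peaks made up 64.5% of knockdown and 63.4% of control stretches. At least 500 bases were reached by 193 knockdown and 215 control stretches. Stretches matched in the other list were longer (median 252 and 256 bases in the knockdown and control lists) than those that were not (159 and 163.5 bases). Coding stretches were also longer than 3′ UTR ones, whose medians were 193 and 188 bases.

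Of the 5 genes with the longest stretch in each list, 4 were in both: Itpkb, Irf2bpl, Znrf3 and Zfp639. In Itpkb, which makes inositol tetrakisphosphate from inositol trisphosphate, the stretch ran over 1059 bases in the knockdown list (chr1:180332904-180333962, plus strand, mm10) and 1051 bases in the control list. Its 6 joined knockdown peaks had log2 folds of 3.37, 3.78, 4.17, 3.66, 3.52 and 3.56 in order along the transcript. Its 8 control peaks had 3.08, 3.24, 3.61, 3.79, 3.94, 3.72, 3.09 and 3.38. The highest piece lay further downstream in the control list, and the levels were alike, at 3.61 and 3.50 over the shared bases of the gene in the knockdown and control lists.

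In Irf2bpl, a transcriptional regulator with a RING domain, the stretch ran over 1018 knockdown bases (chr12:86881757-86882774, minus strand) and 1013 control bases, cut into 20 and 21 peaks. Counted from the start of the knockdown stretch, folds reached 4.99 between bases 203 and 222 and 4.86 between bases 603 and 621 in the knockdown list. In the control list they reached 4.79 between bases 170 and 191 and 4.80 between bases 619 and 637. Znrf3, a membrane ubiquitin ligase that removes Frizzled receptors, had 976 knockdown bases (chr11:5280968-5281943, minus strand) and 957 control bases, and Zfp639, a zinc finger gene, had 931 (chr3:32519696-32520626, plus strand) and 953, with 2 of its 7 control peaks stepped. Tet3, an enzyme that oxidizes methylcytosine in DNA, had 927 knockdown bases and 795 control bases, and Arid1b, a subunit of the BAF chromatin remodeller, 888 and 915.

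**Figure D3:**
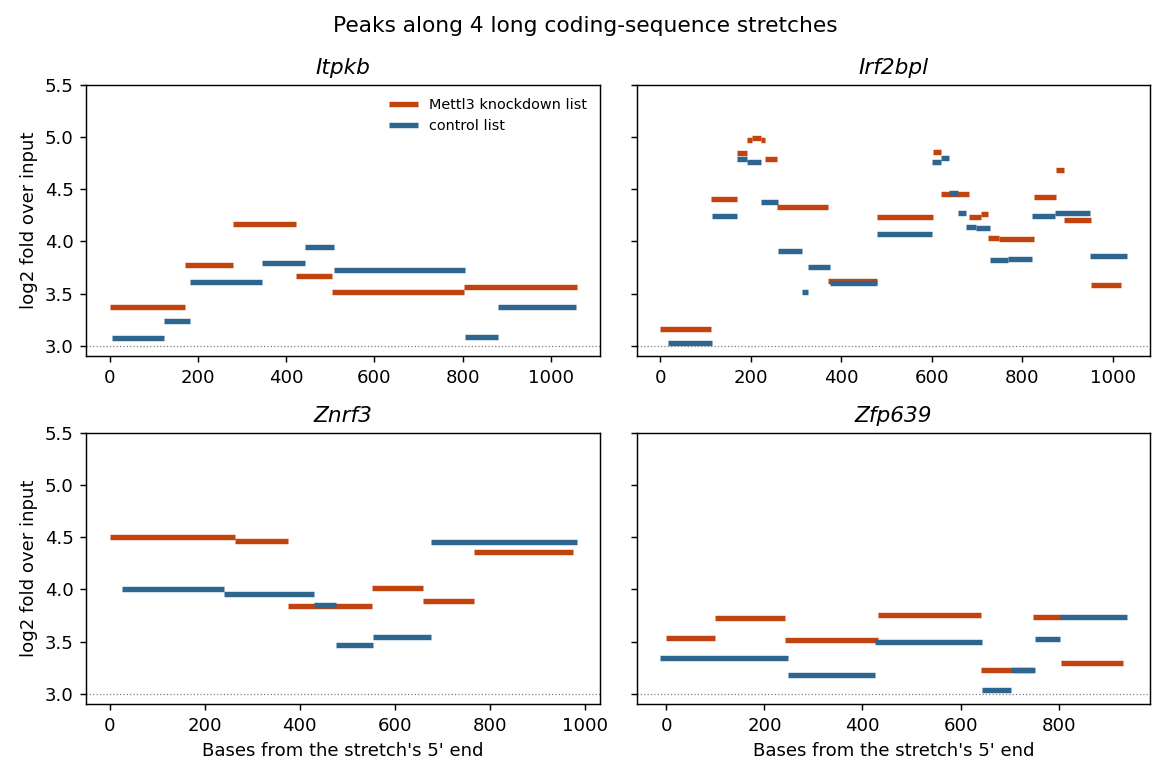
Peaks along the longest coding-sequence stretch of Itpkb, Irf2bpl, Znrf3 and Zfp639: each bar is one peak, drawn from its first to its last base (x axis, bases from the 5′ end of the knockdown stretch) at its log2 fold over input (y axis; dotted line, the list limit of 3). In Irf2bpl the bars reach 4.99 in the knockdown and 4.80 in the control list, and in Itpkb 4.17 and 3.94.

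Most genes had a single coding-sequence stretch. One stretch was found in 2070 knockdown and 2069 control genes, and at least 3 in 412 and 401 genes, with up to 13 in the knockdown (Dchs1) and 9 in the control list. Per gene the median was 307 bases in the knockdown and 310 in the control list. Kmt2d, a histone H3 lysine 4 methyltransferase, had the most in the knockdown list, with 2932 bases against 2476 control bases. Dchs1, a giant cadherin of planar cell polarity, had the most in the control list, with 2459 knockdown bases against 2589 control bases. Mga, a partner of Max, had 2319 and 2378 bases. Fat1, another giant cadherin, had 2122 and 1962 bases, and Nsd1, a histone H3 lysine 36 methyltransferase, 2023 and 1692 bases in the knockdown and control lists. These are sums of bases and favour genes with long coding sequence. Among the 2691 genes with a coding-sequence peak in both lists, the covered bases differed at least 2-fold in 139 genes toward the knockdown list and in 136 toward the control list.

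Coding-sequence stretches lay late in their genes. Along the RefSeq gene span, introns included, the middle of a stretch stood at a median of 78.5% of the way from start to end in the knockdown (4898 stretches placed) and 79.8% in the control list (4797 placed). The last 25% of the span held 54.0% of knockdown and 55.6% of control stretches, and the first 25% held 11.7% and 10.7%. Where coding sequence as a whole lies on this span was not measured, so these shares do not set the peaks apart from it. A minority ran on into the 3′ UTR: 453 knockdown stretches (9.06%, 8.28 to 9.89) and 525 control stretches (10.7%, 9.87 to 11.6) adjoined a 3′ UTR peak. Those that adjoined one had a counterpart in the other list more often, at 89.0% against 75.2% of the remaining stretches in the knockdown and 85.7% against 76.4% in the control list. A coding-sequence peak came without a peak in any other region in 65.9% of knockdown genes (2092) and 62.0% of control genes (1956).

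Over the bases covered in both lists, coding sequence stood slightly higher in the knockdown list. For each gene the log2 fold was averaged over bases that coding-sequence peaks of both lists covered, if at least 50. Over 2568 genes the median difference, knockdown minus control, was 0.10 (quartiles −0.13 and 0.33), from median levels of 3.77 in the knockdown and 3.68 in the control list. It was above 0 in 1580 genes, or 61.5%. Over the 1315 genes with shared 3′ UTR bases the median was −0.03, with levels of 3.73 and 3.79 in the knockdown and control lists, and 46.5% of genes stood above 0. In the 605 genes with both kinds of shared base, a comparison added once the data had been seen, the coding-sequence difference exceeded the 3′ UTR difference by a median of 0.13 (quartiles −0.15 and 0.44). It was the larger of the pair in 384 genes and the smaller in 221. Without stepped folds 425 genes remained, again with a median of 0.13. Each library has its own scale, and how far that scale sets the sign of the median was not tested.

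**Figure D4:**
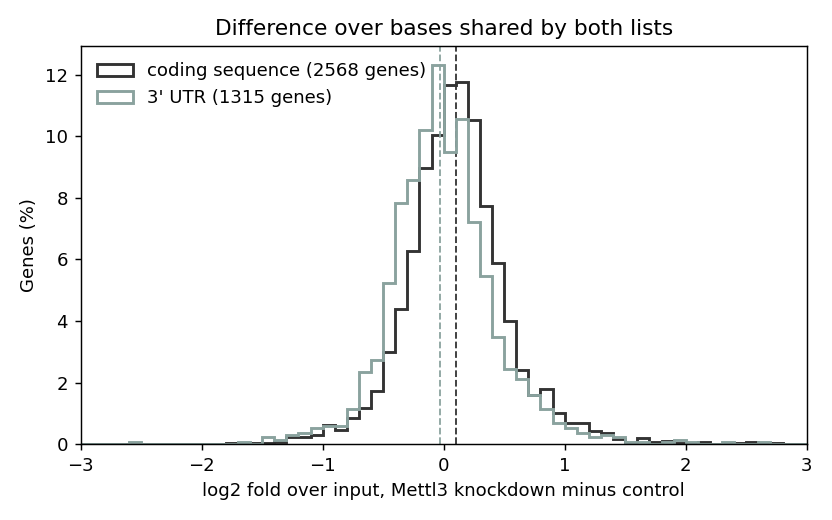
Distribution over genes (y axis, % of genes) of the difference in log2 fold over input, Mettl3 knockdown minus control (x axis), over bases covered in both lists, for coding sequence and 3′ UTR; dashed lines are the medians. The coding-sequence median is at 0.10 and the 3′ UTR median at −0.03, and the distributions overlap over nearly their whole width; differences beyond 3 in size are outside the axis.

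Few genes with shared coding-sequence bases stood far from that median, and a fall below the list limit of 3 cannot appear over these bases. A coding-sequence difference at least 1 log2 unit above it was found in 63 genes and at least 1 below it in 41, of 2568, beside 2.51% above and 1.71% below over all genes and regions. Within 0.5 of the median lay 81.2% of genes.

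The largest positive differences mostly involved stepped folds. Maneal, a Golgi endomannosidase-like gene, had 6.01 in the knockdown and 3.21 in the control list over 260 shared bases, a difference of 2.80, with 94 of these bases under stepped knockdown peaks. Mafa, a transcription factor of the insulin gene in beta cells, had 6.05 and 3.40 in the knockdown and control lists, all from stepped folds. Pou4f1, a transcription factor of sensory neurons, had 6.63 in the knockdown and 4.05 in the control list over 198 bases, with no stepped fold in either. Zfp711, a zinc finger gene, had 5.54 and 3.03, and Snph, which anchors mitochondria in axons, 5.73 and 3.31 in the knockdown and control lists. Fhod3, a formin of heart muscle, had 5.21 and 3.03, Abcd2, a peroxisomal transporter of fatty acids, 5.19 and 3.03, and Ccdc62 5.23 and 3.23. Pou4f1 was the one of these 8 genes with no stepped fold in either list over its shared bases.

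Among the 8 largest negative differences, 4 involved no stepped fold over the shared bases. Ndufs4, a subunit of respiratory complex I, had 4.11 in the knockdown and 5.90 in the control list over 155 bases, a difference of −1.79 that rests on a stepped control peak. Kif16b, a kinesin that moves endosomes, had 3.33 and 4.90, a difference of −1.57 with no stepped fold; its peaks were at chr2:142700025-142700307 in the knockdown list and chr2:142700102-142700302 in the control list, minus strand. Pikfyve, a lipid kinase of endosomes, had 3.04 in the knockdown and 4.39 in the control list, Sema3a, a secreted guide of axons, 3.19 and 4.50, and Dusp23, a phosphatase, 3.13 and 4.38, none of them stepped over the shared bases. Zkscan16 (4.27 and 5.75), Trim36 (4.30 and 5.59) and Zfp493 (3.50 and 4.75) each rested on a stepped control fold, and Trim36 also on a stepped knockdown fold.

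The highest single folds differed between the lists. In the knockdown list the 5 highest were in Pou3f2, a neural transcription factor, at 8.39, Irs4 at 8.13, Hey1, a Notch effector, at 8.04, Qsox2, a sulfhydryl oxidase, at 7.33 and Tmem28 at 7.25. All but Qsox2 had stepped folds there, and Pou3f2, Irs4 and Tmem28 had no control peak of any region. Over the bases shared by both lists Qsox2 had 5.30 in the knockdown and 3.84 in the control list, and Hey1 5.76 and 3.93. In the control list the highest were in Arhgap29, a GTPase activator, at 6.75, Trim36, a ubiquitin ligase, at 6.64 (stepped), Naa30, a catalytic subunit that acetylates protein N-termini, at 6.55, Lrfn1, a synaptic adhesion molecule, at 6.35 and Irf2bp2, a corepressor, at 6.30. Over shared bases Arhgap29 had 5.27 in the knockdown and 5.21 in the control list, Naa30 5.36 and 5.33, Irf2bp2 5.27 and 4.98, and Lrfn1 5.12 and 4.53. Trim36 had 4.30 and 5.59, and of these shared bases 188 in Lrfn1 lay under a stepped knockdown fold and 140 in Arhgap29 under a stepped control fold. Of the 5 control genes 4 were thus above 5 over shared bases in the knockdown list, while 3 of the 5 knockdown genes had no control peak. The peaks with these highest folds were unlike in length. In the knockdown list they had 277 bases in Pou3f2, 119 in Irs4, 122 in Hey1, 8 in Qsox2 and 331 in Tmem28. In the control list they had 32 bases in Arhgap29, 132 in Trim36, 22 in Naa30, 47 in Lrfn1 and 5 in Irf2bp2.

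Genes with peaks in one list alone were about as many on each side. A coding-sequence peak was held by 2691 genes in both lists, by 483 in the knockdown list alone and by 462 in the control list alone, and 344 of these 483 and 337 of these 462 had no peak of any region in the other list. All coding-sequence peaks were stepped in 132 of the knockdown-only genes (27.3%) and in 64 of the control-only genes (13.9%). By covered bases the largest knockdown-only genes were Irs4 with 916 bases in 8 peaks (7 stepped), Bcl11a, a repressor of fetal globin, with 722 bases in 4 peaks (all stepped), Hic2, a transcriptional repressor, with 596, Btbd11 with 593 and Hoxd11, a Hox gene of limb and trunk patterning, with 572. Btbd11 was the one of these 5 without a stepped fold, at up to 4.11. In other regions the control list held 4 peaks in Hic2, 2 in Btbd11 and 1 in Hoxd11, and none in Irs4 or Bcl11a. Among genes whose control bases no knockdown coding-sequence peak overlapped, the largest were Plekhg1, a guanine nucleotide exchange factor, with 989 bases in 5 peaks (3 stepped), and Arhgap20, another GTPase activator, with 611 in 4 peaks (3 stepped). Slx4, a scaffold of DNA repair nucleases, followed with 560 bases at up to 3.25, though the knockdown list held 165 bases of it elsewhere. Nat2, an arylamine acetyltransferase, had 542 bases at up to 4.60 and Golga4, a golgin, 539 at up to 3.08, with no stepped fold and no knockdown peak.

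A peak over input needs the transcript to be present, and input levels are not in the lists. In a gene with a peak in one list alone, loss of methylation and loss of RNA from sight therefore cannot be told apart. Nor can either be told from a small change across the list limit of 3. The highest coding-sequence log2 fold per gene had a median of 3.50 in the 483 knockdown-only genes and 3.32 in the 462 control-only genes. Mettl3 itself held no peak in either list, so the knockdown could not be checked from the peaks. Of 10 fibroblast marker genes, 1 (Col1a2) held a coding-sequence peak in the knockdown and 0 in the control list. Markers of haematopoietic, epithelial and endothelial cells held none in either list, and of 4 neural markers Tubb3 held one in the knockdown list. An unmethylated transcript gives no peak, so these counts do not measure which cell types were present.

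Over all genes that held any peak in either list, 58% held a coding-sequence peak in the knockdown and 57.6% in the control list. Each group below is given as a count of its members and as a share of its members with any peak, to be read beside these shares. Counts of members higher in the knockdown list over shared bases are to be read beside 61.5% of all genes (1580 of 2568). Median differences are to be read beside 0.10. The lists were chosen with earlier results of these data known, and their counts describe these libraries. Groups defined by symbol were larger and hold whole gene families.

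The ribosomal protein and oxidative phosphorylation genes chosen for the lists had almost no peak of any region. Of 50 ribosomal protein genes Rpl30 alone held a peak, a stepped coding-sequence peak in the knockdown list, and of 40 oxidative phosphorylation genes 0 held a peak in either list. These 40 do not cover all such genes: Ndufs4, outside the list, had 155 knockdown and 162 control bases in coding-sequence peaks. Of 39 matrix and fibroblast genes 11 held any peak, and 8 (72.7%) had a coding-sequence peak in the knockdown and 6 (54.5%) in the control list. Tenascin C (Tnc), a matrix glycoprotein, had 802 knockdown bases and 631 control bases and a difference of 0.50.

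Histone methyltransferase genes had them in both lists. All 21 histone methyltransferase genes with any peak, of 31 on the list, had a coding-sequence peak in each of the lists, with a median difference of 0.10 over shared bases. Besides Kmt2d and Nsd1 these included Ash1l, which methylates histone H3 lysine 36, with 3.68 in the knockdown and 3.67 in the control list over shared bases. Of 24 histone demethylase genes 15 held any peak, and 9 (60.0%) had one in the knockdown and 11 (73.3%) in the control list, the knockdown share lying near that over all genes. The acetyltransferases Crebbp and Ep300, which acetylate p53 among others and were listed as its regulators, had 1617 and 1247 knockdown bases against 1653 and 1300 control bases, with differences of 0.13 and 0.08, and 236 knockdown and 82 control bases of Ep300 under stepped folds.

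Genes of the m6A machinery were themselves covered. Of 26 such genes 12 held any peak, 10 (83.3%) a coding-sequence peak in the knockdown and 9 (75%) in the control list. Over shared bases 2 of 9 were higher in the knockdown list, and the median difference was −0.11, against 0.10 over all genes. Rbm15, which guides the methyltransferase to RNA, had 4.02 in the knockdown and 4.09 in the control list, with 1174 and 1177 bases covered. Ythdf2, a reader that brings RNA to decay, had 3.48 and 3.69. Virma, a scaffold of the complex, had 475 knockdown bases in 2 peaks and 1028 control bases in 8 peaks. Its mean log2 folds over all covered bases were 3.20 in the knockdown and 3.34 in the control list, near the list limit of 3. Rbm15b, a relative of Rbm15, went the other way, at 4.34 in the knockdown and 3.68 in the control list. Zcchc4, which methylates ribosomal RNA, had a coding-sequence peak in the knockdown list alone.

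Genes of the response to damage had such peaks in similar numbers in both lists. Of 66 DNA damage and repair genes 31 held any peak, and 26 (83.9%) had a coding-sequence peak in the knockdown and 24 (77.4%) in the control list, 23 of them in both. Their median difference of 0.10 over 20 genes was that of all genes. Of 30 p53 regulators 15 held any peak, and 11 (73.3%) had one in the knockdown and 12 (80.0%) in the control list. Mdm2 had 4.12 in the knockdown and 3.71 in the control list over shared bases, and Ppm1d, the phosphatase that switches p53 signalling off, 3.72 and 4.03. Of 54 p53 target genes 24 held any peak, and 13 (54.2%) had one in the knockdown and 16 (66.7%) in the control list, the knockdown share lying near that over all genes. Bbc3, which encodes the death protein Puma, and the polymerase gene Polh had one in the knockdown list alone. Eda2r, Gdf15, Sesn1, Trp53inp1 and Trp73 had one in the control list alone, stepped in Gdf15.

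Signalling genes, too, had them in similar numbers. Of 36 immediate early genes 27 held any peak, and 24 (88.9%) had a coding-sequence peak in the knockdown and 21 (77.8%) in the control list, with Arc, Ier2 and Mycn (stepped) in the knockdown list alone. Egr3, an early zinc finger transcription factor, had 4.67 in the knockdown and 3.58 in the control list over 339 bases, and Junb, a subunit of AP-1, 4.67 and 4.11. Of 22 Wnt receptor and Axin genes 17 held any peak, and 15 (88.2%) had one in the knockdown and 16 (94.1%) in the control list. Of these, 12 of the 15 with shared bases were higher in the knockdown list, at a median difference of 0.36. The receptor Fzd5 had 4.63 and 4.01 and its relative Fzd4 4.22 and 3.92 in the knockdown and control lists, the last pair in part from stepped folds. Of 27 TGF-beta pathway genes 17 held any peak, and 9 (52.9%) had one in the knockdown and 10 (58.8%) in the control list, near the shares over all genes. The activin receptor Acvr2a had 5.42 in the knockdown and 4.47 in the control list. Of 17 ERK feedback genes 15 held any peak, and 12 (80.0%) had one in the knockdown and 13 (86.7%) in the control list. Of 25 Hippo pathway genes 13 held any peak, and 10 (76.9%) and 11 (84.6%) had one in the knockdown and control lists. Of 25 Notch pathway genes 13 also held any peak, and 9 (69.2%) and 10 (76.9%) had one in the knockdown and control lists. Of 18 microRNA silencing genes 7 held any peak and 4 (57.1%) had one in each list, which is the share over all genes. Among these, the scaffold genes Tnrc6b and Tnrc6c had differences of 0.03 and 0.20.

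The widest gap in number of genes between the lists was among developmental transcription factors. Of 181 homeobox, Sox, Fox, Pou and T-box genes, 91 held any peak, 65 (71.4%) had a coding-sequence peak in the knockdown and 47 (51.6%) in the control list. The knockdown list alone held 21 of them, and the control list alone 3. The 21 included Hoxc10 at up to 5.79, Hoxd10 at 5.74, Hoxd11 at 6.99, Foxd3, a neural crest factor, at 7.01, Sox2, a factor of pluripotent and neural cells, at 4.62 and Pou3f2 at 8.39. Of these, Hoxd10 was the one with a peak whose fold was not stepped. In 17 of the 21 the control list held no peak of any region. All coding-sequence peaks were stepped in 10 of the 21, against 27.3% of all knockdown-only genes. Without stepped folds in either list, a setting added once the data had been seen, 11 genes were in the knockdown list alone and 6 in the control list alone. At a log2 fold of at least 4 the numbers were 20 and 4. At that limit the knockdown list held more coding-sequence peaks over all genes as well, 3803 against 2616. The matching gene counts over all genes are not given for either setting, so these numbers do not set the family apart. The part that the stepped folds have in the family's count, and that of RNA level, was not tested. The 43 family members with shared bases had a median difference of 0.21, and 30 were higher in the knockdown list. Foxa1, a pioneer factor of endoderm, had 5.02 in the knockdown and 4.30 in the control list, over 918 and 730 covered bases in all. Foxc1, a factor of mesenchyme, had 3.91 and 3.37 over its shared coding bases, and a difference of −0.30 over its shared 3′ UTR bases.

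**Figure D5:**
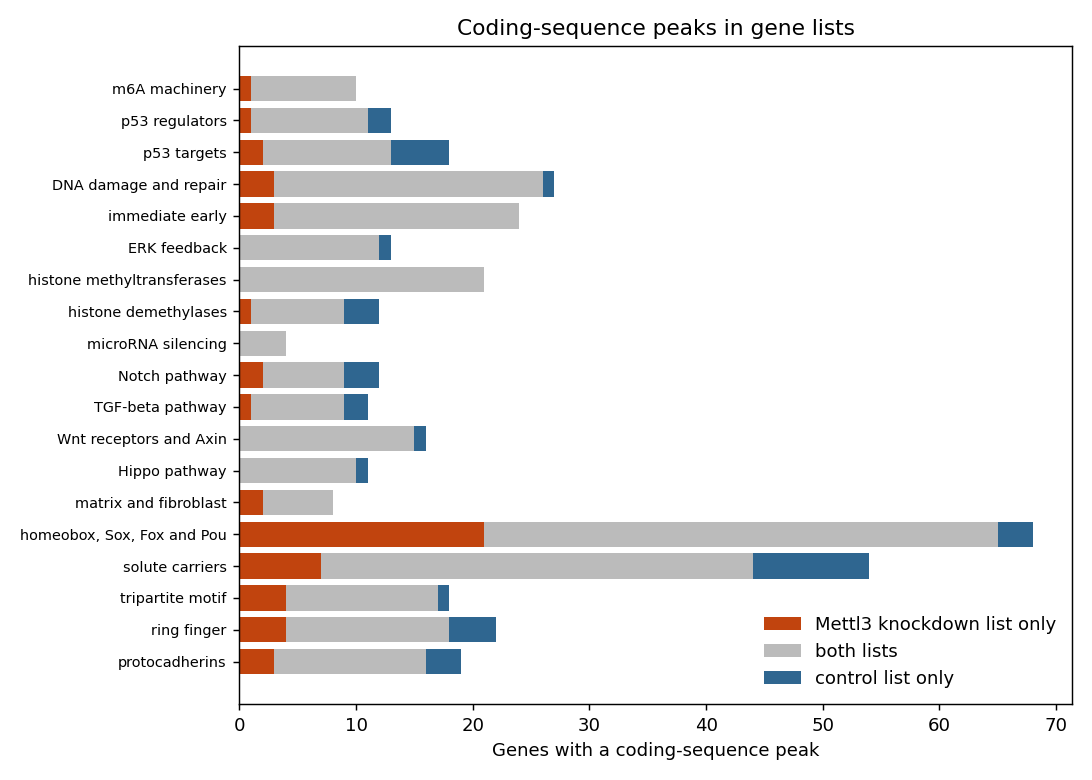
Number of genes of each list (x axis) with a coding-sequence peak in the Mettl3-knockdown list only, in both lists, or in the control list only; the zinc finger genes, 277 in the knockdown and 285 in the control list, and the 2 lists with at most 1 such gene are not drawn. In most lists the genes in both lists outnumber the rest, and among homeobox, Sox, Fox and Pou genes 21 are in the knockdown list only and 3 in the control list only.

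Zinc finger genes were the largest family. Of 473 such genes 340 held any peak, 277 a coding-sequence peak in the knockdown and 285 in the control list, with 250 in both. The share of the 340 was 81.5% and 83.8% in the knockdown and control lists, above the 58% and 57.6% over all genes with a peak. Their median difference over 236 genes was 0.09, and 139 were higher in the knockdown list, beside 0.10 and 1580 of 2568 over all genes.

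The authors also compared the control library with the knockdown library directly, and the sites they listed there were mostly other sites. The authors' deposited table, whose log2 difference runs control over knockdown and which holds only peaks higher in the control, gave 736 peaks in coding sequence, in 574 genes. In the authors' deposited table the coding-sequence differences had a median of 0.77 (quartiles 0.64 and 0.98), 169 were at least 1 and 12 at least 2. Its coding-sequence p-values were at most 0.001 for 200 peaks (27.2%) of the authors' deposited table, against 440 (40.2%) in the 3′ UTR. Of the 736 coding-sequence peaks of the authors' deposited table, 569 (77.3%, 74.1 to 80.3) lay on no peak over input of either list, and 50 lay on a knockdown peak and 163 on a control peak. In the other direction, the authors' deposited table overlapped 163 of 8798 control coding-sequence peaks (1.85%, 1.58 to 2.16), beside 2.8% of control peaks of all regions. Those 163 control peaks had a median log2 fold over input of 3.47, against 3.66 for the remaining coding-sequence peaks, and 70 of them still had a knockdown counterpart.

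Of the 8 genes with the largest coding-sequence differences at p of at most 0.001 in the authors' deposited table, 2 (Tnrc6c and Pik3c2a) lay on a control peak over input at that site and none on a knockdown peak. The largest differences in the authors' deposited table (control over knockdown) were 3.69 in Qser1, 2.42 in Setd1a, 2.29 in Tnrc6c, 2.21 in Lrrcc1 and 1.75 in Tmem167b. Galnt7, which starts O-linked sugar chains, had in the authors' deposited table a difference of 1.54 (control over knockdown, authors' p = 5.85e-07) at chr8:57583914-57584018 on the minus strand. Pik3c2a, a lipid kinase of endocytosis, had 1.50 in the authors' deposited table (control over knockdown, p = 3.86e-04) at chr7:116418246-116418474 on the minus strand, within 338 bases of control peak that no knockdown peak overlapped. Med29, a subunit of the Mediator complex, had 1.45 in the authors' deposited table (control over knockdown, p = 2.02e-04) at chr7:28386735-28386846 on the minus strand. Neither Galnt7 nor Med29 had a coding-sequence peak over input in either list. The most coding-sequence peaks in the authors' deposited table were 10 in Degs1, a desaturase that makes ceramide, at differences of 0.52 to 0.93 (control over knockdown). Phax, an export adaptor of small nuclear RNA, counted 5 over 763 bases in the authors' deposited table, with differences of 0.57 to 1.06, the smallest p being 6.25e-17, none of them on a peak over input. Aen, a nuclease gene induced by p53, counted 6 there, at 0.53 to 0.68 by the authors' deposited table; over shared bases its lists over input gave 3.52 in the knockdown and 3.71 in the control list. Tnrc6c, at 2.29 in the authors' deposited table over 45 bases, nonetheless had 4.49 in the knockdown and 4.29 in the control list over the 1018 bases shared by both lists.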

How the data were processed

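m6A-eCLIP and input libraries of mouse embryonic fibroblasts were analysed from the authors' peak lists, 1 library per group, grouped by the labels. Reads were handled with UMI-tools 0.5.1 and cutadapt 2.7 and placed on build mm10, per the submitters' processing notes. How reads were aligned and peaks called and tested is not given in the sources used here. For each peak over input the authors deposited a log2 fold and a −log10 p-value. For the comparison of libraries the authors deposited a log2 difference, control over knockdown, and a p-value. Read depth is unknown.

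From these, overlaps on the same strand (at least 1 base) were found with bedtools 2.31.1. Adjoining coding-sequence peaks were joined into stretches, and log2 folds averaged, weighted by length, over bases covered in both lists (genes with at least 50). A gene was called when it stood at least 1 from the median. Shares carry exact Clopper-Pearson 95% intervals. Starts count from 0 in the lists and from 1 in the text. Tables were handled with pandas 2.3.3, numpy 2.4.6 and scipy 1.17.1 under Python 3.11.15, and plots drawn with matplotlib 3.10.9. The overlap and averaging were tested on simulated data. Sequences and gene spans are from RefSeq GRCm38.p6.

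Members, gene lists and rules were chosen with earlier results of these data known. Named genes were those with the largest folds (−log10 p of at least 10), the longest stretches, the most bases, the largest differences either way, the most bases without a counterpart, the largest differences in the authors' deposited table (p of at most 0.001), and the most bases in each gene list; list members in 1 list only and further examples from the lists, Degs1, Phax and Aen were chosen after their values were seen. Alternatives covered the overlap rule, fold and p limits, joining, and minimum bases.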

Additional observations from a re-analysis of the deposited data

How the results depend on the processing

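The matched share of coding-sequence peaks (83.0% knockdown, 83.5% control) was 79.9% and 80.1% when at least 50% of the peak had to be overlapped, 84.5% and 84.9% with a counterpart in any region, and 76.5% and 77.4% for joined stretches. It was 92.0% and 94.9% for peaks at a log2 fold of 4 or more, 92.7% and 91.6% for peaks at the −log10 p limit, and 81.9% for knockdown peaks without the shortest 10%. With settings chosen after seeing the data, it was 62.3% and 76.6% when both lists were limited to a log2 fold of at least 4, and 82.4% for control peaks without stepped folds. The coding-sequence share of peaks was 64.9% and 62.0% weighted by length, 59.6% and 51.8% at a log2 fold of at least 4, and 58.8% and 55.9% with peaks joined, in the knockdown and control lists. The median difference over shared bases became 0.15 with both lists at 4 or above, chosen after seeing the data. Joining gaps of up to 50 bases gave median stretches of 234 and 239 bases. Limited to p of at most 0.001, the coding-sequence share of the authors' deposited table was 31.2%, against 39.8% in full.

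No paired analysis was possible because each group had 1 library, and for that reason none was left out. The planned count of m6A motifs over all peaks was not run, since no genome of build mm10 was used here. The list limit of 3 and the unknown depth limit what a missing peak shows.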

Other observations

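Further gene families showed coding-sequence peaks in similar numbers in both lists. Of 69 protocadherin genes, adhesion proteins best known from neurons, 30 held any peak and 16 (53.3%) had a coding-sequence peak in each list, 13 of them in both. Over shared bases 7 of 9 protocadherin genes were higher in the knockdown list, with a median difference of 0.39. Pcdh9 had 1302 knockdown bases and 443 control bases and a difference of 0.70, in part from stepped folds. Of the protocadherins with such a peak in 1 list alone, the 3 in the control list had stepped peaks only, against 0 of 3 in the knockdown list. Some clustered protocadherins share exons, and peaks there may be counted under several genes.

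Of 376 solute carrier genes 79 held any peak, and 44 (55.7%) had a coding-sequence peak in the knockdown and 47 (59.5%) in the control list, near the 58% and 57.6% over all genes with a peak. Slc5a3, the inositol transporter that serves osmotic balance, had 283 knockdown bases and 620 control bases, and a difference of 0.86 over shared bases. Among ubiquitin ligase families, 22 of 68 tripartite motif genes held any peak, and 17 (77.3%) had one in the knockdown and 14 (63.6%) in the control list. Of 77 ring finger genes 28 held any peak and 18 (64.3%) had one in each list. Rnf213 had the most bases among the ring finger genes, with 1523 in the knockdown and 1152 in the control list. Trim56, a ligase of antiviral signalling, had 4.89 in the knockdown and 4.23 in the control list over shared bases.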
